A study of Mus musculus with 12 samples.

Results

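The genes described are 10 genes of liver glucose production and of its switch between fasting and insulin: Pck1, G6pc, Fbp1, Pcx, Ppargc1a, Tat, Sds, Slc2a2, Irs2 and Foxo1. They were taken as a named set, found on the arrays by the RefSeq transcript of each probe, and represented by the brightest probe of the gene, and they are 10 of the 26405 genes tested. None of the 10 passed the test in any of the 5 comparisons. The nearest was Tat, an enzyme of tyrosine breakdown, which lay lower in all 3 IIAEK livers than in any vehicle liver of the same genotype, by 1.74-fold in Akp3 knockout and by 2.23-fold in wild type.

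Liver RNA of 12 male mice was measured, 1 one-colour array per mouse, in 4 groups of 3: Akp3-/- mice given IIAEK, Akp3-/- mice given vehicle, wild-type mice given IIAEK and wild-type mice given vehicle. The deleted gene, Akp3, makes the intestinal enzyme IAP (intestinal alkaline phosphatase), and IIAEK is a peptide of the residues Ile, Ile, Ala, Glu and Lys. The peptide was given by mouth at 600 mg per kg of body weight per day for 14 days; the vehicle was 5 g/L carboxymethylcellulose. All mice were 7 weeks old, and every liver came from a mouse that had gone 8 h without food, so no fed liver stands beside these values. How the knockout allele was made and whether groups shared litters are not given in the sources used here, and p-values measure the spread between these mice only. The groups allow the effect of IIAEK to be read in each genotype and set against each other.

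In the fasted liver, glucose is made from lactate, glycerol and amino acids. Glucagon, acting through cAMP and the factor CREB, and glucocorticoids, acting through their receptor, raise transcription of the rate-setting enzymes and of the coactivator PGC-1alpha (Ppargc1a), while insulin, acting through IRS2 and the kinase AKT, drives the factor FOXO1 out of the nucleus and lowers them. The 10 genes therefore cover enzymes (Pcx, Pck1, Fbp1, G6pc), the glucose carrier (Slc2a2), enzymes that feed amino acids in (Tat, Sds) and regulators (Ppargc1a, Irs2, Foxo1).

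Promoters are shown because these hormones act on this switch through short DNA elements near the start sites. RefSeq promoter windows (GRCm38.p6) were given for 9 of the 10 genes, Sds being the exception. In the 250 bases before the start, 5 motifs were searched on both strands: the cAMP response element TGACGTCA and its shorter form TGACG (which lies within it), the insulin response core TGTTTTG, the forkhead core TGTTTAC and TGTTCT, an arm of the glucocorticoid receptor site. Only 4 members held a match, and their windows are printed 5′ to 3′ on the gene's strand with the match in capitals: Pck1 at chr2:173152823-173153072 (plus strand), Ppargc1a at chr5:51567726-51567975 (minus strand), G6pc at chr11:101367466-101367715 (plus strand) and Irs2 at chr8:11008930-11009179 (minus strand).
Pck1: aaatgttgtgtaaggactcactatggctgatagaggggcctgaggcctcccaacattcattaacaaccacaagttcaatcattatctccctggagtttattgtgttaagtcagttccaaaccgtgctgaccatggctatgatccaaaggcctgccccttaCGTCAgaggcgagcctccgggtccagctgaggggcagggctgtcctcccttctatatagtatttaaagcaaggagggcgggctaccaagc
Ppargc1a: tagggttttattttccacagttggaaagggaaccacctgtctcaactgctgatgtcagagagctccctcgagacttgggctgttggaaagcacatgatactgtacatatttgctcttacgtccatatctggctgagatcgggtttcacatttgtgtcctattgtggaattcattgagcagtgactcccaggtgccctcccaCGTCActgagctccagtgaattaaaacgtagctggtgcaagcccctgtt
G6pc: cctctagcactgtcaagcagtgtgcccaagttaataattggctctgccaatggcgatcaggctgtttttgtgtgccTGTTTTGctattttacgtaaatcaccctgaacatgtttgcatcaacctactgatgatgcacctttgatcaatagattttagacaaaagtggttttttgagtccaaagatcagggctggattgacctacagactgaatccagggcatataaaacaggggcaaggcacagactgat
Irs2: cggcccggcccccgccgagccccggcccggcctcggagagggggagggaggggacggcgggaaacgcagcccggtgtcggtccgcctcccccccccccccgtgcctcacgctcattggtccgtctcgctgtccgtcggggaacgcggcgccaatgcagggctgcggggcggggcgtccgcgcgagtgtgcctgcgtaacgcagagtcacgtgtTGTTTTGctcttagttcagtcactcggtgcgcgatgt
The shorter element TGACG was on the opposite strand (read as CGTCA above) and began 90 bases before the start in Pck1 and 49 bases before it in Ppargc1a. The core TGTTTTG was found 174 bases before the start in G6pc and 37 bases before it in Irs2. These letters are not rare: of 32851 promoter windows of the same length, 17.8% held TGACG and 5.56% held TGTTTTG. No member's window held TGACGTCA (1.55% of all windows), TGTTTAC (3.17%) or TGTTCT (16.1%). A match is a description of the letters, not a measured binding site.

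Levels below are log2 of the background-subtracted signal minus the 75th percentile of that array (log2), so a level of 0 is the 75th percentile. Signals of different probes cannot be set against each other, so each gene is compared only with itself. The 75th percentile was a signal of 453.6 to 758.5 and 58.7% to 63.6% of probes were well above background per array, while all 10 genes were well above background on 12 of 12 arrays. Hepatocyte markers were well above background on every array (7 of 7), and of the 8 pancreatic islet markers 0 to 2 were. The targeted gene Akp3 was above background on 0 of 12 arrays, so the liver data do not check the genotype labels. A change was called at a limma adjusted p under 0.05 over all 26405 genes, in 1 fit to the 12 arrays; errors of log2 changes are SE from that fit, and errors of levels are SD.

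Over all genes, the first principal component (55.3% of the variance) separated 4 vehicle arrays, knockout vehicle 1 and 3 and wild-type vehicle 2 and 3, from the other 8. They are called the 4 outlying vehicle arrays below, a name that only marks this split. They are most of the vehicle arrays, and no IIAEK array is among them. A difference that came with treatment and one of tissue or arrays therefore cannot be told apart here. Values given below without these 4 rest on 1 vehicle array in each genotype, knockout vehicle 2 and wild-type vehicle 1. In these 4, markers of 3 kinds of non-hepatocyte liver cells were higher without overlap: the summed level of 9 Kupffer cell and macrophage markers was 247 to 321, against 83.3 to 184 in the other 8 arrays; more such cells and more RNA per cell cannot be told apart in whole liver. Likewise 6 stellate cell and fibroblast markers summed to 149 to 209 against 69.6 to 112, and 6 bile duct markers to 20.2 to 44.1 against 6.08 to 8.33 (levels relative to the array's 75th percentile). The 6 endothelial markers went the other way, at 34.9 to 40.2 against 46.9 to 55.2, and 5 red blood cell markers overlapped (278 to 348 against 99.6 to 405). The 7 hepatocyte markers summed to 1800 to 2330 in the 4 arrays and to 2260 to 3330 in the others. Wild-type vehicle 1 differed in another way, with the highest sum of 16 exocrine pancreas markers (27.6, against 9.40 to 17.1 in the other 11 arrays). All 12 small intestine markers were well above background in wild-type vehicle 2, against 4 to 9 in the other arrays, although their sum there (114) lay within the range of the rest (87.8 to 140). What part these differences have in the values below was not tested.

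With IIAEK, 4 of 10 members were higher and 6 lower in knockout, and 6 were higher and 4 lower in wild type, with median log2 changes of -0.10 and 0.05; over all genes 56.1% were higher in knockout and 53.7% in wild type, with medians of 0.05 and 0.03. At the adjusted threshold 0 of 10 members and 0% of all genes passed with IIAEK in knockout, and 0 of 10 members and 0.00379% of genes in wild type. At an unadjusted limma p under 0.05 there were 2 members in knockout (Tat, Slc2a2), where 6.46% of all genes reached it, and 2 in wild type (Tat, Sds), where 12.6% did. Members with every IIAEK array below every vehicle array were Tat alone in knockout, against 5.91% of all genes, and Tat, Ppargc1a and Sds in wild type, against 5.85%. None of the 10 lay wholly above, against 9.52% of all genes in knockout and 7.08% in wild type.

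**Figure D1:**
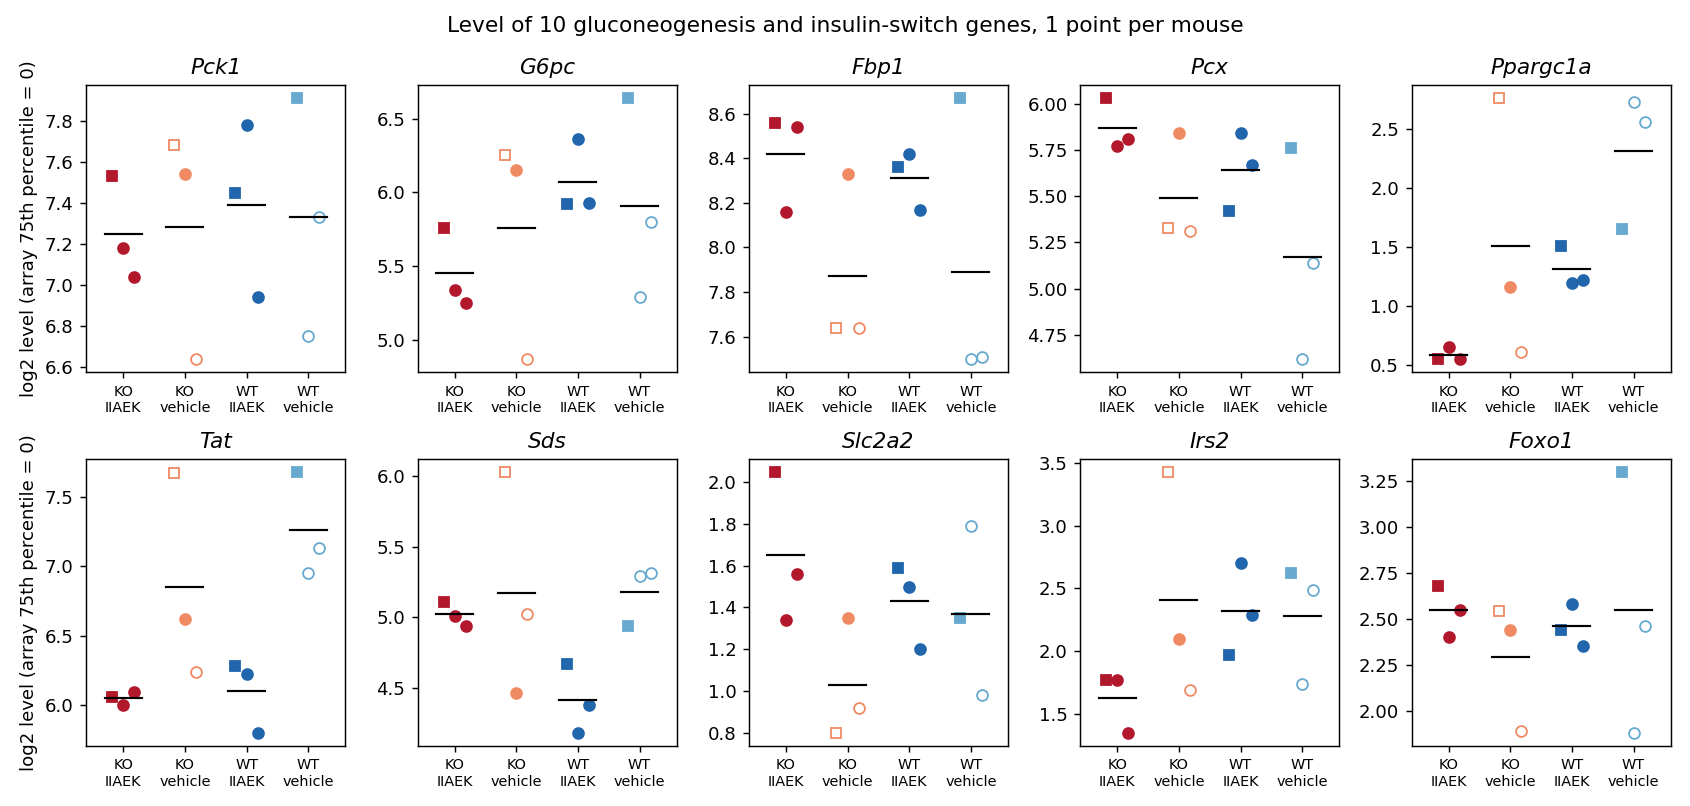
Log2 level of each of the 10 genes (array 75th percentile = 0) in each mouse, by group. Bars are group means, squares are arrays of slide 1, circles arrays of slide 2, and open symbols the 4 outlying vehicle arrays. Tat lies lower in the 6 IIAEK mice (5.80 to 6.28) than in the vehicle mice of the same genotype, and Fbp1 and Pcx are lowest in the 4 open symbols.

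Pcx, pyruvate carboxylase, makes oxaloacetate from pyruvate in mitochondria. Its log2 level was 6.03, 5.77 and 5.81 in the 3 knockout IIAEK livers, against 5.33, 5.84 and 5.31 in knockout vehicle. Wild-type IIAEK livers had 5.42, 5.84 and 5.67, against 5.76, 4.62 and 5.14 in wild-type vehicle. The groups overlapped in both genotypes, and the low values were all among the 4 outlying vehicle arrays, at 4.62 to 5.33 against 5.42 to 6.03 in the other 8 arrays. IIAEK minus vehicle was 0.38 (SE 0.27) in knockout and 0.47 (SE 0.27) in wild type, with limma adjusted p of 0.658 and 0.433, so neither passed.

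Pck1 encodes the cytosolic phosphoenolpyruvate carboxykinase and is a classic target of glucagon and insulin in liver. It stood at 7.53, 7.18 and 7.04 in knockout IIAEK, against 7.68, 7.54 and 6.64 in knockout vehicle. In wild type the IIAEK livers had 7.45, 7.78 and 6.94, against 7.91, 6.75 and 7.33 with vehicle. The 4 ranges overlapped throughout, and the group means lay between 7.25 and 7.39. The log2 change with IIAEK was -0.04 in knockout (95% interval -0.81 to 0.74) and 0.06 in wild type (-0.71 to 0.84). As ratios of IIAEK over vehicle these intervals are 0.570 to 1.67 in knockout and 0.611 to 1.79 in wild type.

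Fbp1, fructose bisphosphatase, had the same split as Pcx. Knockout IIAEK livers stood at 8.56, 8.16 and 8.54, against 7.64, 8.33 and 7.64 in knockout vehicle. Wild-type IIAEK livers stood at 8.36, 8.42 and 8.17, against 8.67, 7.50 and 7.51 in wild-type vehicle. The 4 outlying vehicle arrays (7.50 to 7.64) lay below all 8 others (8.16 to 8.67), the remaining vehicle arrays included (8.33 and 8.67). The IIAEK change was 0.55 (SE 0.31) in knockout and 0.42 (SE 0.31) in wild type, with limma adjusted p of 0.656 and 0.534.

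One array decided the calls of both enzymes in wild type. Wild-type vehicle 1, the array with the highest pancreas markers, was also the only wild-type vehicle array that was not outlying. Without it, the IIAEK livers were compared with wild-type vehicle 2 and 3, both outlying arrays. Fbp1 was then higher with IIAEK by 0.81 (limma adjusted p = 0.0430) and Pcx by 0.76 (adjusted p = 0.0492). In that comparison 3908 genes were called, against 1 with all arrays. Leaving out instead the 4 outlying vehicle arrays, a fit with 1 vehicle array left in each genotype and its spread taken from the other groups, gave wild-type changes of -0.35 for Fbp1 and -0.11 for Pcx, and knockout changes of 0.09 and 0.03. On slide 1, which held 1 mouse per group, the wild-type changes were -0.31 for Fbp1 and -0.34 for Pcx, and on slide 2, with 2 per group, 0.79 and 0.87. The knockout changes were positive on both slides, at 0.92 and 0.36 for Fbp1 and at 0.70 and 0.22 for Pcx.

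G6pc encodes the catalytic subunit of glucose-6-phosphatase, which frees glucose in the last step. Its level was 5.76, 5.34 and 5.25 in knockout IIAEK, against 6.25, 6.15 and 4.87 in knockout vehicle. It was 5.92, 6.36 and 5.93 in wild-type IIAEK, against 6.64, 5.29 and 5.80 in wild-type vehicle. IIAEK and vehicle ranges overlapped in both genotypes, whereas under IIAEK all 3 knockout livers lay below all 3 wild-type livers. The change with IIAEK was -0.31 (SE 0.40) in knockout and 0.16 (SE 0.40) in wild type, and the difference of these changes was -0.47 (SE 0.56, limma adjusted p = 1).

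Slc2a2 encodes GLUT2, the glucose carrier of the hepatocyte surface. Levels were 2.05, 1.34 and 1.56 in knockout IIAEK, against 0.80, 1.35 and 0.92 in knockout vehicle. Wild-type livers had 1.59, 1.5 and 1.2 with IIAEK, against 1.35, 1.79 and 0.98 with vehicle. In knockout 2 of 3 IIAEK livers lay above every vehicle liver and the third (1.34) lay just below the highest vehicle value. The knockout change was 0.62 (SE 0.25, 1.54-fold), with an unadjusted limma p of 0.0317 and an adjusted p of 0.656; on slide 1 it was 1.24 and on slide 2 it was 0.31, and without the 4 outlying vehicle arrays it was 0.30. The wild-type change was 0.06 (SE 0.25), and the difference between the genotypes was 0.56 (SE 0.36, adjusted p = 1).

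Both enzymes of amino acid supply were lower with IIAEK in wild type without passing. Tat, tyrosine aminotransferase, is a textbook glucocorticoid and glucagon target. It measured 6.06, 6.0 and 6.09 in knockout IIAEK, against 7.67, 6.62 and 6.24 in knockout vehicle. In wild type it measured 6.28, 6.22 and 5.80 with IIAEK, against 7.68, 6.95 and 7.13 with vehicle. The IIAEK livers lay below all vehicle livers within each genotype, and across genotypes only knockout vehicle 3 (6.24) came below the highest IIAEK liver (6.28). The spread was also narrower with IIAEK in knockout, at 6.05 ± 0.05 against 6.85 ± 0.74 with vehicle (SD, n = 3 each), a difference in spread that was not tested.

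Tat's log2 change was -0.80 in knockout (SE 0.33, 95% interval -1.52 to -0.08, limma unadjusted p of 0.0333 and adjusted p of 0.656) and -1.16 in wild type (SE 0.33, interval -1.88 to -0.44, limma unadjusted p of 0.00478 and adjusted p of 0.395). It was negative on both slides in both genotypes, at -1.61 on slide 1 and -0.39 on slide 2 in knockout and at -1.41 and -1.03 in wild type. Without the 4 outlying vehicle arrays it was -0.57 in knockout and -1.58 in wild type. The wild-type value is then against wild-type vehicle 1 alone, which had the highest Tat level (7.68). Over all 22 alternative settings it ran from -1.10 to -0.38 in knockout and from -1.58 to -0.94 in wild type, never passing (lowest adjusted p 0.226 and 0.0859). The genotypes' changes differed by 0.36 (SE 0.46, adjusted p = 1).

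Sds, serine dehydratase, which turns serine into pyruvate, stood at 5.11, 5.01 and 4.94 in knockout IIAEK, against 6.03, 4.46 and 5.02 in knockout vehicle. In wild type it stood at 4.67, 4.18 and 4.38 with IIAEK, against 4.94, 5.29 and 5.31 with vehicle. All wild-type IIAEK livers lay below all wild-type vehicle livers, while in knockout the IIAEK livers lay inside the vehicle range. The wild-type change was -0.77 (SE 0.32, 1.71-fold lower, limma unadjusted p of 0.0357 and adjusted p of 0.395), with -0.27 on slide 1 and -1.02 on slide 2. The knockout change was -0.15 (SE 0.32) and had opposite signs on the slides, -0.92 and 0.23. The genotypes' changes differed by 0.62 (SE 0.45), which did not pass (adjusted p = 1).

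Among the regulators, Ppargc1a had the widest spread between mice. Its levels were 0.55, 0.65 and 0.55 in knockout IIAEK, against 2.76, 1.16 and 0.61 in knockout vehicle. They were 1.51, 1.19 and 1.22 in wild-type IIAEK, against 1.65, 2.73 and 2.56 in wild-type vehicle. The group means ran, in ascending order, 0.58 in knockout IIAEK, 1.31 in wild-type IIAEK, 1.51 in knockout vehicle and 2.31 in wild-type vehicle. The knockout IIAEK and wild-type IIAEK ranges did not overlap, nor did those of wild-type IIAEK and wild-type vehicle, while knockout vehicle (0.61 to 2.76) overlapped all 3 other groups.

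The Ppargc1a change with IIAEK was -0.93 in knockout (SE 0.46, 95% interval -1.95 to 0.09, limma adjusted p = 0.656) and -1.0 in wild type (SE 0.46, interval -2.02 to 0.02, adjusted p = 0.397). A second probe of the gene gave -0.91 and -1.08. Slides differed in size: in knockout the change was -2.22 on slide 1 and -0.29 on slide 2, and in wild type -0.13 on slide 1 and -1.44 on slide 2. The 3 highest values were all in outlying arrays (2.56 to 2.76), and without those 4 arrays the changes were -0.57 and -0.34.

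Irs2, the insulin receptor substrate through which insulin restrains glucose output in liver, is itself a FOXO1 target that falls when insulin acts. It measured 1.77, 1.77 and 1.35 in knockout IIAEK, against 3.43, 2.10 and 1.69 in knockout vehicle. Wild-type livers measured 1.97, 2.70 and 2.29 with IIAEK, against 2.62, 1.74 and 2.49 with vehicle. IIAEK and vehicle ranges overlapped in both genotypes, and all knockout IIAEK livers lay below all wild-type IIAEK livers. The change with IIAEK was -0.78 (SE 0.41, limma adjusted p = 0.656) in knockout, where knockout vehicle 1 carried the highest value of all 12 mice, and 0.04 (SE 0.41) in wild type. The difference between the genotypes was -0.82 (SE 0.58, adjusted p = 1).

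Foxo1, the factor that insulin restrains through AKT, was measured at the RNA level only, and its position in the cell is not seen here. Levels were 2.68, 2.40 and 2.55 in knockout IIAEK, against 2.54, 2.44 and 1.89 in knockout vehicle. Wild-type livers had 2.44, 2.58 and 2.35 with IIAEK, against 3.30, 1.88 and 2.46 with vehicle. The IIAEK livers of both genotypes lay inside the range of the wild-type vehicle livers. The change was 0.26 (SE 0.31) in knockout and -0.09 (SE 0.31) in wild type, and a second probe gave 0.16 and -0.06.

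**Figure D2:**
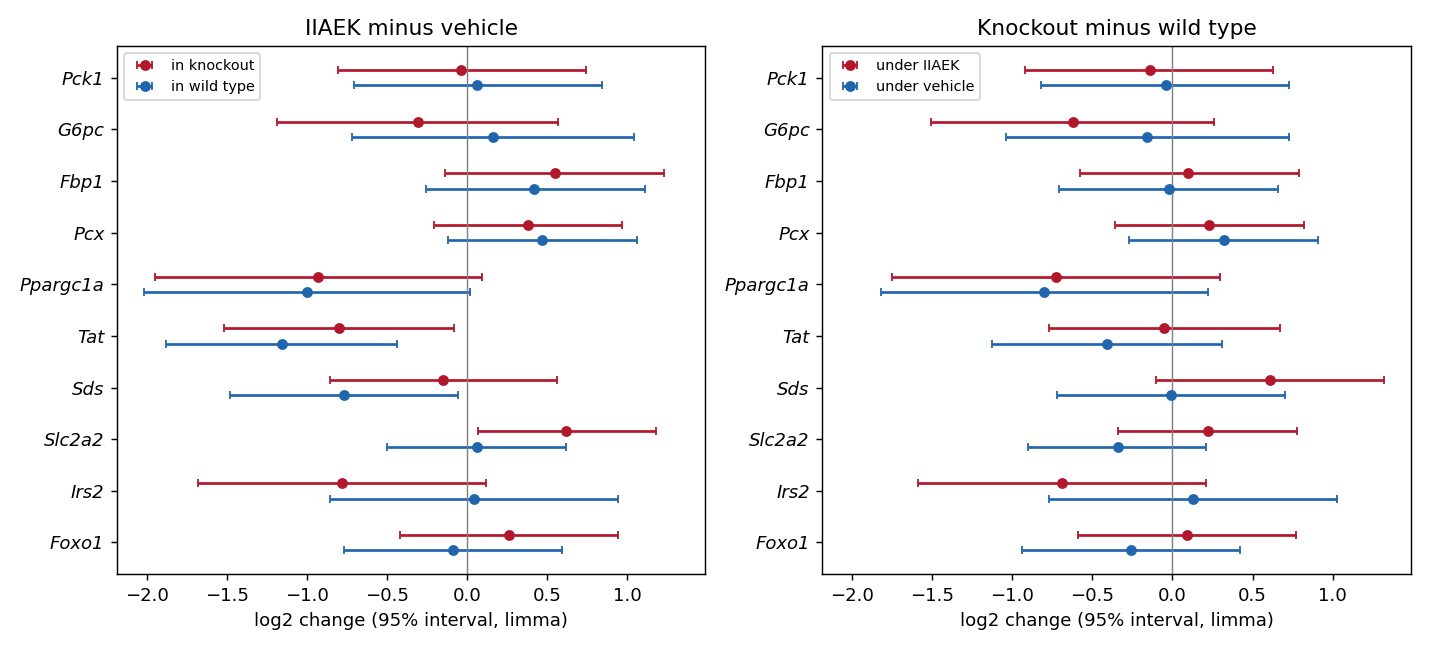
Log2 change of the 10 genes with 95% intervals from limma (n = 3 against 3): left, IIAEK minus vehicle in knockout (red) and wild type (blue); right, knockout minus wild type under IIAEK (red) and under vehicle (blue). Tat's intervals with IIAEK lie below 0 in both genotypes, and no gene passed after adjustment over all genes.

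Knockout was then set against wild type. Under IIAEK 5 of 10 members were higher and 5 lower, with 0 called against 0.00757% of all genes, and 0 reached an unadjusted limma p of 0.05 against 7.88% of genes. All 3 knockout livers lay above all wild-type livers for Sds (12.9% of all genes did) and below them for G6pc, Irs2 and Ppargc1a (14.9% of all genes). The log2 changes were 0.61 for Sds (SE 0.32, limma adjusted p = 0.629), -0.62 for G6pc (SE 0.40, adjusted p = 0.651), -0.69 for Irs2 (SE 0.41, adjusted p = 0.642) and -0.73 for Ppargc1a (SE 0.46, adjusted p = 0.651). On slide 1 and slide 2 they were 0.44 and 0.69 for Sds, -0.17 and -0.85 for G6pc, -0.20 and -0.93 for Irs2, and -0.96 and -0.61 for Ppargc1a.

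Under vehicle 2 of 10 members were higher and 8 lower in knockout, with a median of -0.10 beside -0.07 over all genes, of which 40.9% were higher. None was called, against 0.00379% of all genes, and none reached an unadjusted limma p of 0.05, against 6.88%. Changes ran from -0.80 (Ppargc1a) to 0.32 (Pcx), and the groups overlapped for all 10, where 2.84% of all genes lay wholly higher and 5.80% wholly lower in knockout. The difference between the IIAEK changes of the genotypes ran from -0.82 (Irs2) to 0.62 (Sds), with 0 members and 0% of genes called and 0 members at an unadjusted p of 0.05, against 1.61% of genes. The 5 comparisons share groups, so they are not independent of each other.

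The members varied between mice of one group more than most genes did. The pooled SD within groups was 0.29 for the median gene, and it was higher for all 10 members, at 0.32 for Slc2a2 up to 0.54 for G6pc, 0.56 for Irs2 and 0.64 for Ppargc1a, which places the members at percentiles 58.0 to 89.0 of all genes. Of the 45 pairs of members, 28 correlated positively and 17 negatively across the 12 mice, with 15 at r of 0.5 or more and 4 at -0.5 or less. Pck1 and G6pc, the enzymes under the closest hormonal control, correlated at Pearson r = 0.89, and at 0.94 once group means were removed. Fbp1 and Pcx correlated at 0.85 (0.85 with group means removed) and Pck1 and Foxo1 at 0.83 (0.88). Ppargc1a and Tat correlated at 0.77 (0.56), and the lowest value was that of Pcx and Ppargc1a at -0.75 (-0.50). These 12 points share the scaling of each array and the 4 outlying arrays, so the values describe these mice only.

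**Figure D3:**
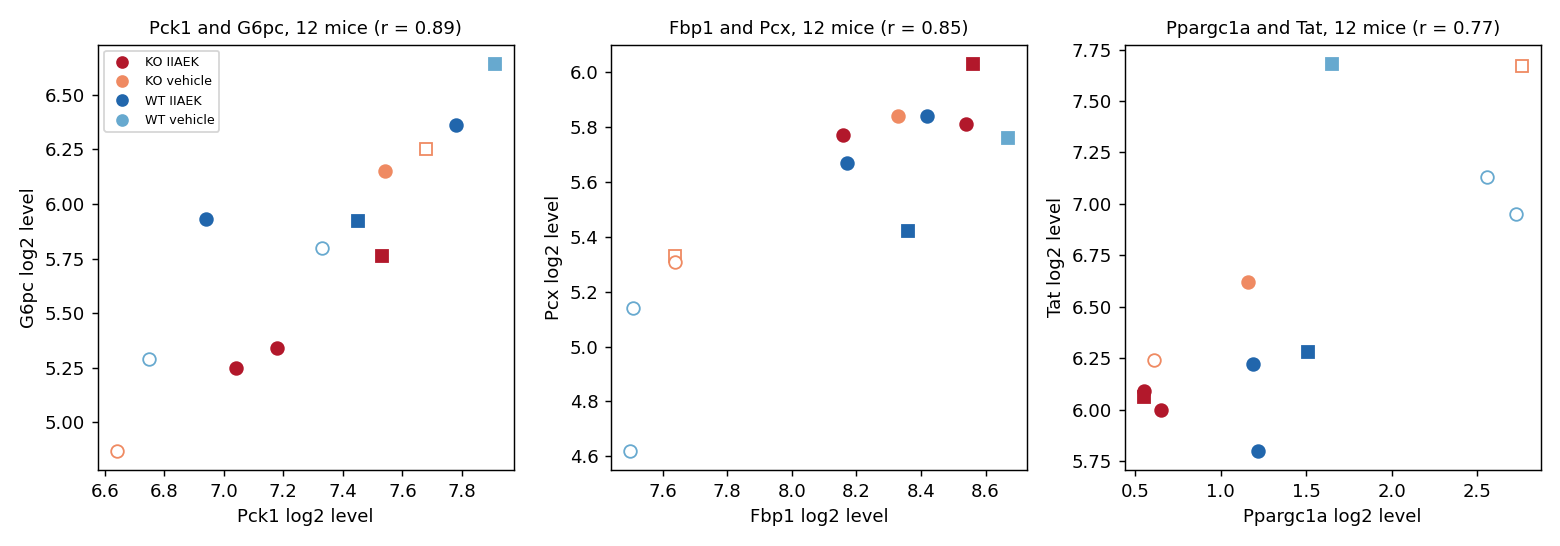
Log2 levels of 3 pairs of genes across 12 mice (n = 3 per group, groups by colour as in the legend, squares slide 1, circles slide 2, open symbols the 4 outlying vehicle arrays). Pck1 and G6pc (r = 0.89) form a line that crosses all groups, Fbp1 and Pcx (r = 0.85) separate the open symbols from the rest, and Ppargc1a and Tat (r = 0.77) place the IIAEK mice at the lower left.

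Of all other genes tested, those whose log2 levels followed a member most closely over the 12 arrays were Proc, the gene of protein C made by hepatocytes (r = 0.987), and Gcdh, a mitochondrial enzyme of lysine breakdown (0.983), for Fbp1. Pcx was followed by Med26 (0.986) and Dyrk1a (0.983), Sds by Pgap6 (0.949) and Sorbs3 (0.926), and Ppargc1a by Trp53inp1 (0.940) and Ankrd66 (0.928). For G6pc they were Arl6ip6 (0.943) and Pak4 (0.940), for Foxo1 Shb (0.924) and Rhd (0.913), for Pck1 Tmem239 (0.916) and Wdr89 (0.905), and for Tat Thap2 and Arl4d (both 0.911). Irs2 was followed by Tbc1d8 (0.902) and by Dusp1, a phosphatase gene that glucocorticoids induce (0.842). No p is attached, since each is the highest of all genes searched.

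The rest of the pathway was read through 5 lists of related genes, 123 in all, of which 122 were tested, and 0 of them were called in any comparison. The lists were chosen with earlier results of these data known, so their counts are a description and not a test. Beside the shares of all genes at an unadjusted limma p under 0.05 given above (6.46% in knockout and 12.6% in wild type), the lists gave these counts with IIAEK. Of 24 other enzymes of gluconeogenesis and glucose output, 17 were higher and 7 lower with IIAEK in each genotype, with medians of 0.18 in knockout and 0.14 in wild type, and 2 in knockout and 3 in wild type reached that p, or 1 and 2 of the 23 that were well above background on all 12 arrays. Glud1, glutamate dehydrogenase, changed by 0.54 (SE 0.21) in knockout and 0.38 (SE 0.21) in wild type, and by 0.23 and -0.02 without the 4 outlying vehicle arrays. Fbp2 is the muscle form of fructose bisphosphatase. It was well above background on 1 of 3 arrays in knockout IIAEK, against 3 of 3 in knockout vehicle. In wild type it was well above background on 0 of 3 IIAEK arrays, against 2 of 3 vehicle arrays. The wild-type change was -1.29 (SE 0.43, limma adjusted p = 0.395) and did not pass. No fold is given, as no wild-type IIAEK array measured Fbp2 well above background. Fbp2 was tested only because all knockout vehicle arrays measured it, so its lower values with IIAEK in knockout were favoured by the filter and are a description.

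Of 23 genes of amino acid catabolism, 16 were higher and 7 lower with IIAEK in knockout (median 0.17), and 10 were higher and 13 lower in wild type (median -0.03), with 0 and 2 at that p. The alanine aminotransferases, which make pyruvate from alanine, were named for their small p. Under IIAEK all 3 knockout livers lay above all wild-type livers for Gpt (0.39, SE 0.14) and for Gpt2 (0.42, SE 0.20). This was also so for Sds and for 12.9% of all genes. With IIAEK in wild type Gpt2 changed by -0.48 (SE 0.20), and Gpt by -0.16 (SE 0.14) with overlapping groups. None of these passed in limma (adjusted p = 0.625 for Gpt and for Gpt2 between genotypes, 0.395 for Gpt2 with IIAEK), and second probes of both genes gave 0.40 and 0.42.

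Of 29 genes of the glucagon, cAMP and glucocorticoid signals of fasting, 13 were higher and 16 lower with IIAEK in knockout (median -0.04) and 12 higher and 17 lower in wild type (median -0.14). At an unadjusted p under 0.05, 7 were lower and 0 higher in knockout, 24.1% of the list against 6.46% of all genes. In wild type 4 were lower and 0 higher, 13.8% against 12.6%. As the list was chosen with earlier results known, these shares are a description. Of the 7, Nr4a1 went from -1.82 to -0.75 in knockout without the 4 outlying vehicle arrays. Cebpd likewise went from -1.17 to -0.11 and Sgk1 from -1.17 to -0.29, while Pdk4 went from -1.1 to -1.37. Pde4d, a phosphodiesterase that breaks down cAMP, changed by -1.38 (SE 0.37, limma adjusted p = 0.656) in knockout and -0.92 (SE 0.37, adjusted p = 0.395) in wild type, with its 4 other probes at -1.51 to -0.33 in knockout; without the 4 outlying vehicle arrays it changed by -1.03 and -0.11. Creb1, the gene of CREB, differed between knockout and wild type by -0.53 under vehicle (SE 0.14, limma adjusted p = 0.71), with its 3 other probes at -0.27 to -0.10, and by -0.44 under IIAEK (SE 0.14, adjusted p = 0.625), with the other probes at -0.33 to 0.32.

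Of 25 tested genes of insulin signalling and FoxO partners, 18 were higher and 7 lower with IIAEK in knockout (median 0.09) and 12 higher and 13 lower in wild type (median 0.00), with 6 and 4 at an unadjusted p under 0.05 (24.0% and 16.0%). Igfbp1, a secreted binding protein of insulin-like growth factors and a liver gene that insulin shuts off, had the largest change of the 122 genes with IIAEK in knockout. It measured 4.54, 4.67 and 3.65 in knockout IIAEK, against 8.32, 5.93 and 7.31 in knockout vehicle, and 4.66, 6.08 and 5.27 in wild-type IIAEK, against 6.44, 7.21 and 7.78 in wild-type vehicle. Within each genotype the IIAEK livers lay below all vehicle livers, as they did for 5.91% of all genes in knockout and 5.85% in wild type. Igfbp1 was named for its small p, so the separation is a description. The change was -2.90 in knockout (SE 0.59, 7.48-fold lower, limma unadjusted p of 0.000496 and adjusted p of 0.656) and -1.81 in wild type (SE 0.59, 3.50-fold lower, limma unadjusted p of 0.0111 and adjusted p of 0.395), and neither passed. Its 4 highest values were those of the 4 outlying vehicle arrays (7.21 to 8.32, against 5.93 and 6.44 in the other vehicle arrays), and without them the change was -1.64 in knockout and -1.11 in wild type.

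Foxa2, a forkhead factor of fasted liver, lay the other way. It stood at 3.37, 3.38 and 3.61 in knockout IIAEK, against 2.22, 3.15 and 2.67 in knockout vehicle, and at 3.27, 3.42 and 3.37 in wild-type IIAEK, against 2.61, 1.67 and 2.27 in wild-type vehicle. All IIAEK livers of both genotypes (3.27 to 3.61) lay above all 6 vehicle livers (1.67 to 3.15). Within 1 genotype, 9.52% of all genes in knockout and 7.08% in wild type lay wholly higher with IIAEK. The share over both genotypes was not counted. Foxa2 was named for its small p, so the separation is a description. The change was 0.77 (SE 0.27, limma adjusted p = 0.656) in knockout and 1.17 (SE 0.27, adjusted p = 0.395) in wild type, and it did not pass. Without the 4 outlying vehicle arrays, which stood at 1.67 to 2.67, it was 0.30 in knockout and 0.74 in wild type.

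Of 21 genes of insulin-induced glycolysis, lipogenesis and glucose uptake, 15 were higher and 6 lower with IIAEK in each genotype, with medians of 0.53 in knockout and 0.42 in wild type beside 0.05 and 0.03 over all genes. At an unadjusted p under 0.05, 5 were higher and 0 lower in knockout, and 2 were higher and 2 lower in wild type; of the 20 genes well above background on all 12 arrays these were 5 and 0 in knockout and 1 and 2 in wild type. Pfkfb3, a kinase that stimulates glycolysis, stood at -0.63, -0.38 and -0.56 in knockout IIAEK, against 0.18, -0.58 and 0.03 in knockout vehicle, and at -0.69, -0.18 and -0.80 in wild-type IIAEK, against 0.89, 0.08 and 0.38 in wild-type vehicle. The wild-type groups did not overlap, where 5.85% of all genes lay wholly lower with IIAEK, and the change was -1.01 (SE 0.26, limma adjusted p = 0.395). Without the 4 outlying vehicle arrays it was -1.45, against wild-type vehicle 1 alone, whose 0.89 was the highest Pfkfb3 level. Pnpla3, a lipid droplet protein that insulin induces, was well above background on 3 of 3 IIAEK arrays and on 1 of 3 vehicle arrays in each genotype, so it was tested only through the IIAEK groups and no fold is given, and its second probe did not follow the first. The 3 livers per group limit all of these values, as the 95% intervals of the members show.

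**Figure D4:**
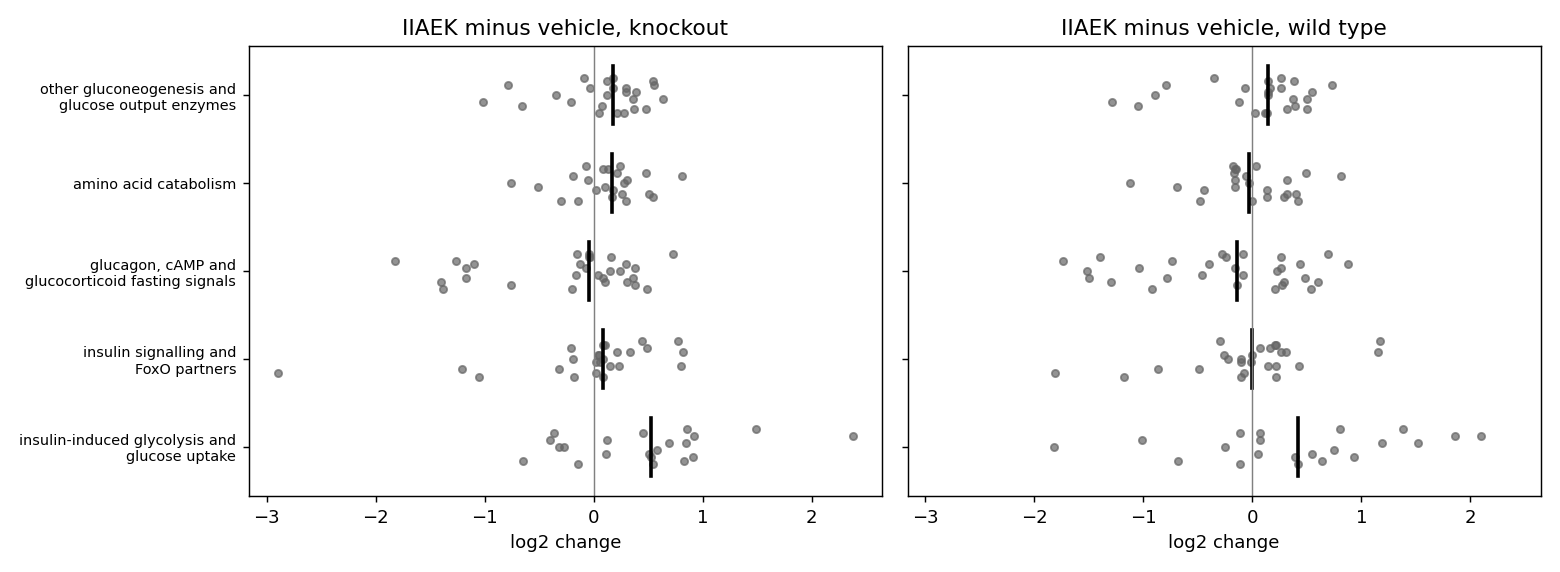
Log2 change with IIAEK of each tested gene of the 5 lists, in knockout (left) and wild type (right). Each point is 1 gene, offset vertically only to show it, and bars are list medians, which lie at 0.53 and 0.42 for the insulin-induced list and at -0.04 and -0.14 for the fasting signals; the point at -2.90 on the left is Igfbp1, and none of the genes passed after adjustment over all genes.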

How the data were processed

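Per the file headers, the one-colour scans went through Feature Extraction 10.7.3.1 of Agilent, and the deposited processed signal is an intensity per spot with the background subtracted and no scaling between arrays. The series table deposited by the authors holds log2 values; against the scanner files its columns follow the scaled log2 signal centred on each probe's median (r = 0.99973 to 0.99993), with column medians of 0.0147, -0.0485 and 0.0530 in knockout IIAEK, -0.128, -0.0517 and -0.110 in knockout vehicle, 0.155, 0.0672 and 0.0714 in wild-type IIAEK, and 0.172, -0.0389 and -0.154 in wild-type vehicle, and how the authors scaled it is not given in the sources used here. A day count of 14 was used where a label field of some samples reads weeks.

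Of 62976 spots per array, 59305 were not controls; 19 non-uniform spots over all arrays were left out, 0 were saturated, and spots of a probe were averaged into 56605 probes. Names came from RefSeq transcripts (32994 probes; 22911 symbols); the headers give build mm9 and the name and promoter tables GRCm38.p6, so no array position was used. Log2 signal minus the array's 75th percentile, brightest probe per gene, was tested for 26405 genes, those well above background on each array of 1 or more groups, with limma 3.58.1 in R 4.3.3, 12 arrays, 1 mean per group, 8 residual and 2.70 prior degrees of freedom, two-sided, Benjamini-Hochberg, threshold 0.05. In simulated data for IIAEK in wild type over 26405 genes, 49 of 100 genes changed by 1 (log2) and 87 of 100 changed by 2 were called, with 8 calls among unchanged genes. The simulated noise was independent between genes, with the same spread in all groups, and both sets of genes were changed in 1 run. Real spreads could differ between groups, as for Ppargc1a in knockout (SD 0.06 with IIAEK, 1.12 with vehicle). Whether the simulated rates hold for the real arrays, where the 4 outlying vehicle arrays stood apart over all genes, was not tested. The members and lists were chosen with earlier results of these data known. Named were all 10 members, per list the called genes or else the 2 with the smallest unadjusted p, and per member the 2 best correlated genes (those of Slc2a2 are not reported here). Replicate 1 of each group was on slide 1, and replicates 2 and 3 on slide 2, each slide with a scan day of its own. Alternatives were normexp (offset 50, on spot medians, no means being among the columns used), the series table, quantile normalization, dropping the filter or asking for all 12 arrays, the mean over probes, slide or replicate number as a block, slide 2 alone, the 4 outlying vehicle arrays left out, and each array left out. Leaving out the 4 outlying arrays for named list genes, and counting list genes among those well above background on all 12 arrays, were added after seeing the data.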

Additional observations from a re-analysis of the deposited data

Results flagged for a closer look

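G6pc was the member whose IIAEK livers lay on opposite sides of the vehicle mean in the genotypes, by margins close to 0 for 3 of the 6 livers: the differences were -0.0017, -0.42 and -0.50 in knockout, and 0.0088, 0.45 and 0.02 in wild type (log2). The difference between the changes was -0.47 on the log2 scale (SE 0.56, 95% interval -1.72 to 0.78), and limma's interaction test did not pass (unadjusted p = 0.425, adjusted p = 1). The difference ran from -0.91 to -0.14 over the 22 alternatives. The opposite directions were lost where the wild-type change turned negative: it was -0.57 without the 4 outlying vehicle arrays and -0.15 without wild-type vehicle 2, and on slide 1 the changes were -0.49 in knockout and -0.72 in wild type.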

How the results depend on the processing

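The 10 members gave 1100 values over 22 alternatives and 5 comparisons; 2 were called, Fbp1 and Pcx with IIAEK in wild type without wild-type vehicle 1, and 74 had the opposite sign to the reported value, all of them uncalled. Tat, Ppargc1a, Slc2a2, Irs2, Fbp1, Pcx, G6pc and Foxo1 kept their sign with IIAEK in knockout, and Tat, Ppargc1a and Sds in wild type, under all 22, though a change cannot move where only arrays of other groups are left out or only the filter differs. The cause of a changed sign or count was not tested, beyond the smaller number of arrays where arrays were left out.

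With normexp the log2 change took the other sign at 0.0124 for Fbp1 and 0.0368 for Sds (knockout over wild type under vehicle). With quantile normalization the log2 change took the other sign at -0.066 for Pck1 and -0.0362 for Irs2 (IIAEK in wild type), 0.0243 for Pck1 and 0.0879 for Tat (knockout over wild type under IIAEK), 0.17 for Pck1, 0.26 for Fbp1 and 0.071 for Sds (knockout over wild type under vehicle), -0.0475 for Fbp1 (the interaction). With the series table the log2 change took the other sign at 0.00693 for Sds (knockout over wild type under vehicle). On slide 2 alone the log2 change took the other sign at 0.0206 for Pck1 and 0.23 for Sds (IIAEK in knockout), -0.0342 for Slc2a2 and 0.30 for Foxo1 (IIAEK in wild type), 0.0328 for Tat (knockout over wild type under IIAEK), 0.0488 for Pck1, 0.48 for Fbp1 and -0.21 for Irs2 (knockout over wild type under vehicle), -0.42 for Fbp1 (the interaction). Without the 4 outlying vehicle arrays the log2 change took the other sign at 0.55 for Sds (IIAEK in knockout), -0.52 for Pck1, -0.57 for G6pc, -0.35 for Fbp1, -0.11 for Pcx and -0.30 for Irs2 (IIAEK in wild type), 0.00205 for Slc2a2 and -0.52 for Irs2 (knockout over wild type under vehicle), 0.23 for Pck1, 0.15 for Pcx and -0.24 for Ppargc1a (the interaction). Leaving out 1 array at a time, the changes that took both signs ran -0.36 to 0.16 for Pck1 and -0.51 to 0.27 for Sds (IIAEK in knockout), -0.23 to 0.35 for Pck1, -0.15 to 0.52 for G6pc, -0.14 to 0.27 for Slc2a2, -0.23 to 0.21 for Irs2 and -0.42 to 0.29 for Foxo1 (IIAEK in wild type), -0.37 to 0.05 for Pck1 and -0.20 to 0.0389 for Tat (knockout over wild type under IIAEK), -0.33 to 0.28 for Pck1, -0.46 to 0.29 for G6pc, -0.25 to 0.36 for Fbp1, -0.44 to 0.34 for Sds, -0.38 to 0.48 for Irs2 and -0.59 to 0.12 for Foxo1 (knockout over wild type under vehicle), -0.42 to 0.19 for Pck1, -0.26 to 0.36 for Fbp1, -0.38 to 0.19 for Pcx, -0.38 to 0.70 for Ppargc1a and -0.0306 to 0.68 for Foxo1 (the interaction).

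Over all genes, the counts called (0, 1, 2, 1 and 0 for IIAEK in knockout, IIAEK in wild type, knockout over wild type under IIAEK and under vehicle, and the interaction) became 2 under vehicle with normexp; 3 under IIAEK with quantile normalization; 1, 2, 0 and 2 in the first 4 comparisons with no filter; 0 under IIAEK with the mean over probes; 0 in wild type and 0 under IIAEK with the slide as a block; 1 in knockout, 0 in wild type and 0 under IIAEK on slide 2; and 10 under IIAEK, 60 under vehicle and 1 for the interaction without the 4 outlying vehicle arrays. The fit without the 4 outlying vehicle arrays kept 1 vehicle array per genotype, knockout vehicle 2 and wild-type vehicle 1. Under vehicle it set 1 mouse against 1 mouse, with the spread taken from the IIAEK groups. Its counts under vehicle and for the interaction cannot tell an effect of genotype from a difference between single mice. No conclusion is drawn from them. With 1 array left out the counts called ran from 0 to 6 for IIAEK in knockout, from 0 to 3908 in wild type, where the members called ran from 0 to 2, from 0 to 4 and from 1 to 2 for knockout over wild type under IIAEK and under vehicle, and from 0 to 1 for the interaction. Whether replicate numbers pair the mice cannot be decided here. Deviations from group means correlated at -0.546 to 0.645 (median 0.0388) between same-numbered arrays of different groups. Between differently numbered ones they correlated at -0.694 to 0.776 (median 0.00645). These deviations include the 4 outlying vehicle arrays, and replicate 1 was also slide 1. With the replicate block 0 members were called, with 0 genes in wild type and 0 under IIAEK. For the named genes of the lists, chosen after seeing the data, leaving out the 4 outlying vehicle arrays turned the sign with IIAEK to -0.0234 for Glud1 in wild type, and to 0.112 for Gpt2, 0.0506 for Pfkfb3 and -0.395 for Pnpla3 in knockout. Dim probes limit Fbp2 and Pnpla3, and 3 mice per group limit every value.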

Other observations

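Within the list of fasting signals, 4 genes reached an unadjusted limma p under 0.05 with IIAEK in both genotypes, all lower and none passing after adjustment. They are 13.8% of the 29 genes, against 249 (0.943%) of all 26405 genes. The list was chosen with earlier results known and the 4 genes were picked after their values were seen. These shares are therefore a description and not a test, and both vehicle groups held outlying arrays. Nr4a1, a nuclear receptor gene induced by cAMP, changed by -1.82 (SE 0.61) in knockout and -1.74 (SE 0.61) in wild type. Cebpd, a transcription factor gene induced by glucocorticoids, changed by -1.17 (SE 0.44) in knockout and -1.50 (SE 0.44) in wild type. Sgk1, a kinase gene induced by glucocorticoids, changed by -1.17 (SE 0.45) in knockout and -1.04 (SE 0.45) in wild type, and Pde4d by -1.38 (SE 0.37) and -0.92 (SE 0.37). The list as a whole did not fall: 13 genes were higher and 16 lower in knockout, and 12 higher and 17 lower in wild type. Fkbp5 changed by 0.04 in knockout and -0.09 in wild type, Klf9 by 0.38 and 0.26, and Crem by -0.03 and 0.26. Mt1 and Mt2 changed by 0.16 and 0.15 in knockout and by -1.4 and -1.52 in wild type. Without the 4 outlying vehicle arrays the changes in knockout and wild type were -0.75 and -0.41 for Nr4a1, -0.11 and -0.89 for Cebpd, -0.29 and -0.19 for Sgk1, and -1.03 and -0.11 for Pde4d. Pdk4, a kinase that spares pyruvate in fasting, was lower with IIAEK in knockout (-1.10, SE 0.49). Its wild-type change was 0.88, with -0.39 on slide 1 and 1.51 on slide 2. The difference from wild type was -1.98 (SE 0.70, adjusted p = 1 in limma). Pdk4 was the 1 gene of the list at an unadjusted p under 0.05 for this difference. Over the 29 genes the difference was positive for 14 and negative for 15, with Mt2 at 1.67 and Mt1 at 1.56.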
